A study of Homo sapiens with 6 samples.

Results

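Lysosomal hydrolases and the machinery of autophagy were examined in SW480 colon carcinoma cells after knockdown of gankyrin. The set holds 49 genes named from general knowledge of the pathway, with earlier results of these data known. They are 10 cathepsins, 16 other lysosomal genes (hydrolases, membrane proteins and the transcription factors TFEB and TFE3) and 23 autophagy genes. Of these, 48 were among the 19775 genes that had at least 1 probe set paired with that gene alone. Each was read on its brightest such probe set by the mean of the 6 arrays. Of the 49 members, 45 were among the 14199 genes tested. CTSF, CTSS and ULK2 lay below the limit on dim probe sets, a mean log2 signal of 3.6, and GLB1 was read only by a probe set shared with TMPPE.

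SW480 is an established human colon cancer line. The labels give 3 arrays of cells with a non-targeting shRNA (control) and 3 of cells with a gankyrin shRNA (knockdown), all at 4 days and with no other treatment named. The sources used here do not give the number of hairpins or say that replicates were separate cultures, so the spread behind each p-value may be technical. RNA was read from whole cultures, so fewer cells with a transcript and less of it per cell cannot be told apart.

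Lysosomes are acidic organelles in which cathepsins cut proteins while other hydrolases cut lipids, glycans and glycolipids. Autophagy brings them cargo: a membrane sac grows around the cargo, closes as an autophagosome and fuses with the lysosome. The kinase ULK1 with ATG13, ATG101 and RB1CC1 starts the sac, the BECN1 lipid kinase complex and the WIPI proteins mark it, and ATG7, ATG3 and the ATG12-ATG5-ATG16L1 complex attach the LC3 and GABARAP proteins to its lipid. Receptors such as SQSTM1, NBR1 and OPTN tie ubiquitin-tagged cargo to those proteins. TFEB and TFE3 activate many of these genes through a palindromic promoter motif around the letters CACGTG. Gankyrin, encoded by PSMD10, is an assembly chaperone of the proteasome, the cell's other main route of protein breakdown.

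PSMD10 fell 13.4-fold in the knockdown arrays (log2 fold change -3.74 ± 0.08 SE, limma adjusted p = 6.81e-09), and its knockdown values lay below its control values without overlap. NFIL3, given as the silenced gene in one line of the design text, was at -0.26 ± 0.07 (adjusted p = 0.0281), a call lost in 6 of 16 alternative settings. Median log2 signals of the 6 arrays ran from 4.19 to 4.25. Of 12 colon epithelial markers 9 lay above 4.54, the level that bounds 95% of 45 tissue-restricted genes, with group means of EPCAM, KRT18 and LGALS4 above 12, whereas CDX2, CDH17 and GPA33 did not. The mean of the 12 was 8.50 to 8.53 on control and 8.38 to 8.44 on knockdown arrays: CDH1 fell by 0.64, KRT19 by 0.46 and KRT20 by 0.66, VIL1 rose by 0.82, and the other markers did not pass. Of 11 macrophage and leukocyte markers 7 were at or below that level, PTPRC, CD163 and CSF1R among them, while LYZ read 12.15 to 12.35. The mean of those 11 markers was 4.50 to 4.56 on control and 4.53 to 4.58 on knockdown arrays. Of 10 fibroblast markers 7 were at or below 4.54, with array means of 3.81 to 3.85 in control and 3.98 to 4.00 in knockdown arrays, and FAP rose by 0.84 from a control mean of 4.28. The part of these markers in the members' values was not tested.

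Control replicate 3 stood apart in a measure of RNA quality. The difference between the 3' and 5' control probe sets of ACTB, which grows as RNA breaks down, was 1.82 on the log2 scale on that array and 0.43 to 0.53 on the other 5, and that of GAPDH was 0.56 against -0.11 to 0.00. The array was the highest of the 3 controls for 31 of the 45 members and the lowest for 7, against 56.0% and 23.6% of all genes. Values without it are given for each member where leaving it out changes a call or moves a difference of at least 0.1 by over 1.5 times. The 18S ribosomal RNA control probe sets also differed between the groups, the one for the 3' end being 6.02 to 6.28 in control and 7.30 to 7.55 in knockdown arrays; the part of this in the members' values was not tested.

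Among the 45 tested members, 4 rose and 10 fell in the knockdown arrays (adjusted p under 0.05 over all genes). OPTN, a receptor for damaged mitochondria and other cargo, fell 2.65-fold, and CTSB, the cysteine protease cathepsin B, fell 2.16-fold. NEU1, TFEB, PSAP, GABARAPL1, WIPI1, SQSTM1, ATG16L1 and GABARAP fell by smaller amounts, and CTSH, LIPA, ATG3 and PPT1 rose by at most 0.41 on the log2 scale. The 14 called members are 31.1% of those tested, beside 22.5% of all genes. Members that rose were 4 of 45, where 8.13% of all genes rose, and members that fell were 10 of 45, where 14.3% of all genes fell. The median log2 fold change was -0.06 over the members and -0.02 over all genes. For 26 of 45 members (57.8%) the 2 groups had no overlap, beside 40.3% of all genes. Knockdown values lay above all controls for 9 members, beside 15.7% of all genes, and below them for 17, beside 24.6%. OPTN and CTSB are among the 0.838% of all genes called with a change of at least 2-fold. How far falls outnumbered rises depends on the scaling: with each array centred on the median of the tested genes, 9 members rose and 9 fell, and the share of all called genes that rose went from 36.2% to 60.7%.

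**Figure D1:**
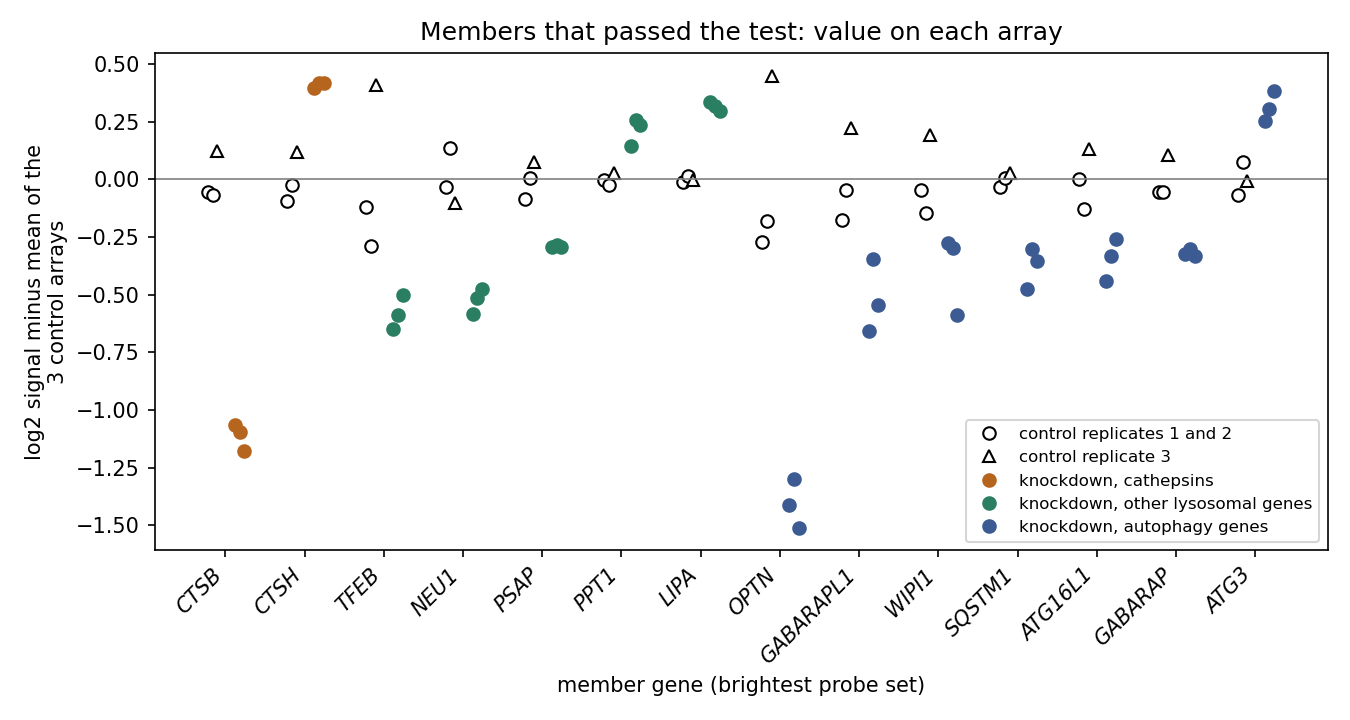
Log2 signal on each array minus the mean of the 3 control arrays (vertical axis) for the 14 members that passed the test (horizontal axis). Open symbols are control arrays, the triangle being control replicate 3, and filled symbols are knockdown arrays. All 3 knockdown values lie on one side of all 3 control values for each of the 14 genes, as for 40.3% of all genes. The open triangle is far above the other controls for OPTN and TFEB.

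The CACGTG motif was looked for in the promoters of the members, taken from RefSeq (GRCh38.p14) as 250 bases before to 50 bases after the start of each gene. A promoter was held for 41 of the 49 members and not for CTSB, CTSS, LAMP2, HEXA, PSAP, ASAH1, RB1CC1 and UVRAG. The letters CACGTG, which read the same on both strands, were in 8 of those 41 (19.5%), beside 7.26% of 35116 promoters in the whole table and 9.82% of the 11364 held for tested genes. The longer palindrome TCACGTGA, which contains CACGTG, was in 5 members (12.2%), beside 0.98% of all promoters and 1.77% of those held for tested genes. Many members were already known as genes activated through this motif. These shares therefore describe the choice of genes and are no result of the arrays. By class, CACGTG was in 3 of 8 cathepsin, 4 of 12 other lysosomal and 1 of 21 autophagy promoters. Of the 8 promoters with CACGTG, NEU1 belongs to a gene that fell and ATG3 to one that rose; CTSA, CTSD, LAMP1, GAA and MCOLN1 did not pass and CTSF was not tested. The 4 promoters below were chosen after the matches and calls were seen. They hold the same letters and belong to a gene that fell (NEU1), one that rose (ATG3) and ones that did not pass (LAMP1, MCOLN1). They are printed 5' to 3' along each gene's strand, with the CACGTG matches in capitals. They lie at chr13:113296989-113297288 (plus strand) for LAMP1, chr19:7522374-7522673 (plus strand) for MCOLN1, chr6:31862772-31863071 (minus strand) for NEU1 and chr3:112561913-112562212 (minus strand) for ATG3. A match describes the letters and says nothing of binding in these cells.
LAMP1: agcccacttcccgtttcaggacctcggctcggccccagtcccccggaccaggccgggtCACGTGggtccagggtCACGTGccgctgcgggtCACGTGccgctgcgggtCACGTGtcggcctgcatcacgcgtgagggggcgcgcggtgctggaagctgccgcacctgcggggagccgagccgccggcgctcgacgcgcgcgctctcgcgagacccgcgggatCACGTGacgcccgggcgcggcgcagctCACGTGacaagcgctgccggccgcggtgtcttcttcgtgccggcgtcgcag
MCOLN1: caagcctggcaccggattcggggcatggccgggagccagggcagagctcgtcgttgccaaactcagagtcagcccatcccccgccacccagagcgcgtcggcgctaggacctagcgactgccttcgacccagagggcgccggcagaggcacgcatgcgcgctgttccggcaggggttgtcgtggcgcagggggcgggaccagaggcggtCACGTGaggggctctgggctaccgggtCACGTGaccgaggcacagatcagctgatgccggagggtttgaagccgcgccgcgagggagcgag
NEU1: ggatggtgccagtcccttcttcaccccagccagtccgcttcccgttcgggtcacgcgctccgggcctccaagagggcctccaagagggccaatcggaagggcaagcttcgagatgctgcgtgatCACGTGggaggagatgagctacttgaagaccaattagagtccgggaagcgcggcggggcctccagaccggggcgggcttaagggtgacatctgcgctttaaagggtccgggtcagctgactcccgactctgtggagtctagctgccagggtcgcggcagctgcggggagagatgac
ATG3: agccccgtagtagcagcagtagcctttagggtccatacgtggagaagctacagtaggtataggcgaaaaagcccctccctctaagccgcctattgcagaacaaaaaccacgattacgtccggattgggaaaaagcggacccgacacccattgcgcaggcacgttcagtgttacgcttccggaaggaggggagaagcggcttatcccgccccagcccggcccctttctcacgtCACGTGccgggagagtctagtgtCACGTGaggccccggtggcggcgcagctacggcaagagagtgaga
LAMP1 holds 6 matches, MCOLN1 and ATG3 2 each, and NEU1 1.

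Of 8 cathepsins tested, CTSB fell, CTSH rose and 6 did not pass, with a median log2 fold change of -0.02. The share called was 25%, beside 22.5% of all genes. CTSB, an abundant lysosomal cysteine protease with both endo- and exopeptidase activity, read 8.96, 8.95 and 9.14 on control replicates 1 to 3 and 7.95, 7.92 and 7.84 on knockdown replicates 1 to 3 (log2 signal). Every knockdown value was at least 1 log2 unit below every control value, and the log2 fold change was -1.11 ± 0.07 SE (limma adjusted p = 1.46e-05), rank 31 by p among the 14199 genes. The fall was seen on all 5 CTSB probe sets, at -1.11, -0.93, -0.92, -0.66 and -0.94 from the brightest to the dimmest, each past an adjusted p of 0.05 over all probe sets. Without control replicate 3 it was -1.05.

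CTSH, an aminopeptidase of the same cysteine protease family that also takes part in processing surfactant and other secreted proteins, moved the other way. It read 9.97, 10.04 and 10.18 in control and 10.46, 10.48 and 10.48 in knockdown arrays. The groups did not overlap, the highest control being replicate 3, and CTSH rose by 0.41 ± 0.06 (adjusted p = 0.00125), or by 0.47 without that array. CTSH has a single probe set.

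The other 6 tested cathepsins did not pass. CTSD, the main lysosomal aspartic protease, read 7.46, 7.50 and 7.53 in control and 7.58, 7.47 and 7.41 in knockdown arrays, so that its groups overlapped throughout. Its log2 fold change was -0.01, with a 95% interval of -0.18 to 0.16. CTSA (a serine carboxypeptidase that also stabilises NEU1), CTSC (the protease that activates granule serine proteases) and CTSL (a broad endopeptidase) were at -0.03, 0.04 and -0.01, and the intervals of all 3 stayed within -0.16 to 0.19. CTSV was at -0.09 (interval -0.29 to 0.10). CTSZ, a carboxypeptidase, was lower on all 3 knockdown arrays, at 5.82, 5.71 and 5.80 against 5.94, 6.03 and 6.35, but missed the threshold at -0.33 (adjusted p = 0.0654). It passed without control replicate 1 (-0.41, adjusted p = 0.0390) and was at -0.21 without control replicate 3 (adjusted p = 0.0884). CTSF and CTSS, the cathepsin of antigen-presenting cells, had means over the 6 arrays of 3.55 and 3.54 on their brightest probe sets, at the low end of the scale, and were not tested.

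**Figure D2:**
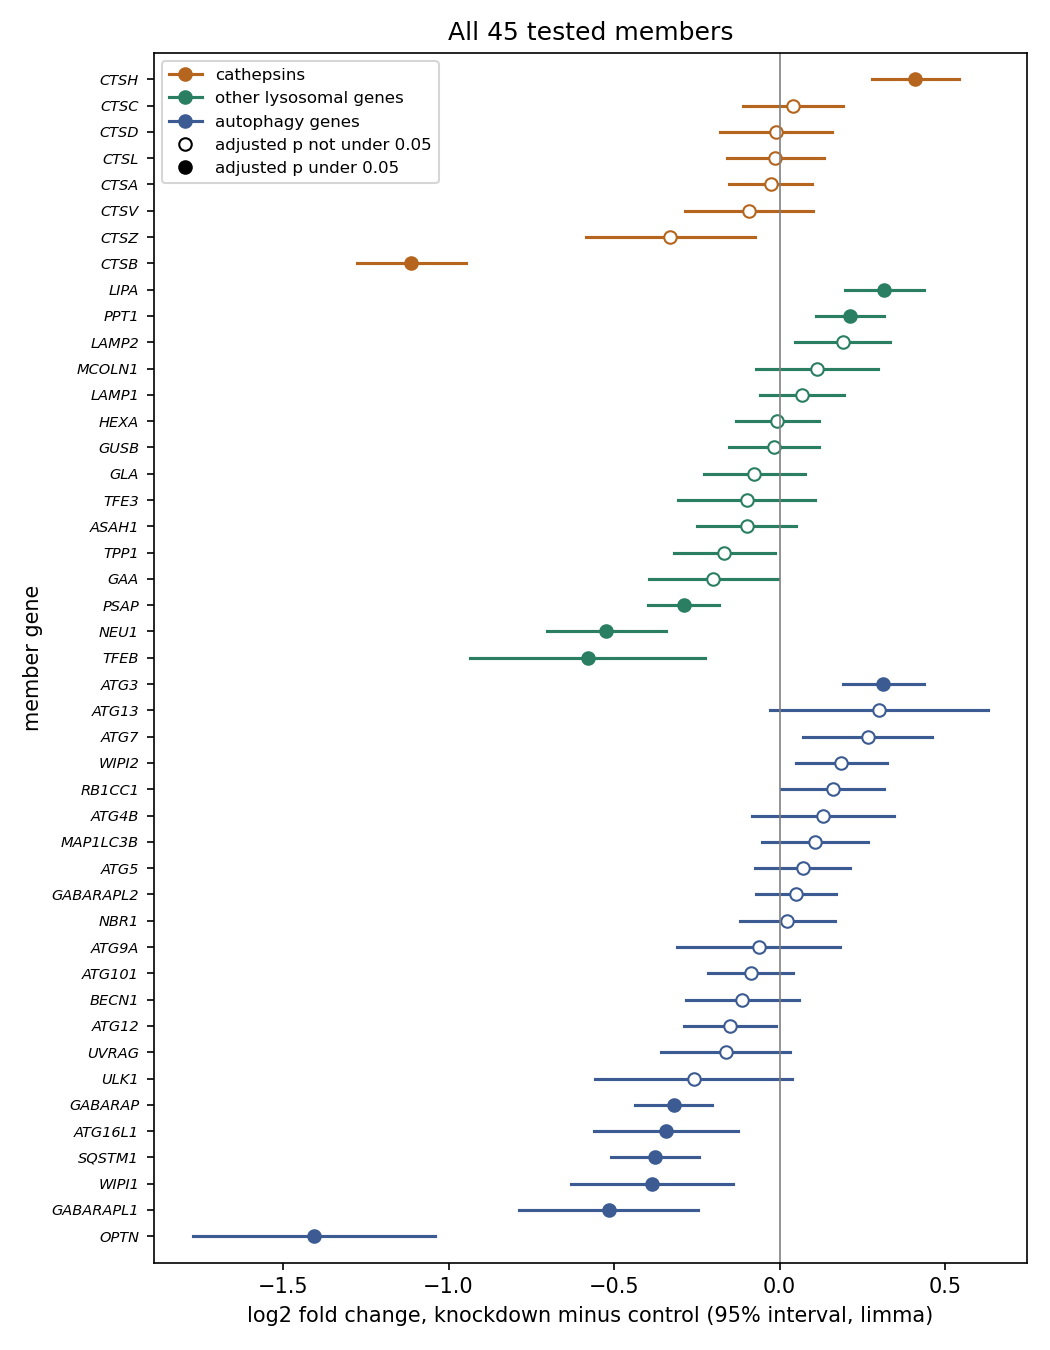
Log2 fold change, knockdown minus control (horizontal axis), with its 95% interval from limma for each of the 45 tested members (vertical axis), grouped as cathepsins, other lysosomal genes and autophagy genes. Filled points passed an adjusted p of 0.05. OPTN at -1.41 and CTSB at -1.11 lie apart from the other members, which run from -0.58 to 0.41.

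Of the 15 other lysosomal genes tested, 2 rose, 3 fell and 10 did not pass, with a median log2 fold change of -0.08. The share called was 33.3%, beside 22.5% of all genes. Among the glycan and sphingolipid enzymes, NEU1, the lysosomal sialidase, read 8.24, 8.41 and 8.17 in control and 7.69, 7.76 and 7.80 in knockdown arrays. The groups were well apart, and NEU1 fell by 0.52 ± 0.08 (adjusted p = 0.00173), or by 0.58 without control replicate 3. PSAP, the precursor of the saposins that help enzymes reach sphingolipids, read 11.08, 11.17 and 11.24 in control and 10.87, 10.88 and 10.87 in knockdown arrays on its brighter probe set. It fell by 0.29 ± 0.05 there (adjusted p = 0.00265), with no overlap. On the dimmer PSAP probe set control replicate 3 was low, at 10.15 against 10.67 on each of the other controls, while the knockdown arrays read 10.42, 10.50 and 10.49. That probe set was at -0.03, and with the probe sets averaged PSAP did not pass (-0.16, adjusted p = 0.111). The other glycan and sphingolipid hydrolases did not pass: GAA (glycogen) was at -0.20, GLA at -0.08, ASAH1 (ceramide) at -0.10, and HEXA and GUSB at -0.01 and -0.02, with 95% intervals of -0.13 to 0.12 and -0.15 to 0.12. The GLB1 probe set shared with TMPPE was at -0.18 ± 0.06 and did not pass over all probe sets (adjusted p = 0.124).

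The 2 members of this class that rose were LIPA and PPT1. LIPA, the acid lipase that frees cholesterol and fatty acids in the lysosome, read 9.07, 9.10 and 9.08 in control and 9.42, 9.40 and 9.38 in knockdown arrays. Replicates differed by at most 0.04 within a group, and LIPA rose by 0.32 ± 0.05 (adjusted p = 0.00270). PPT1, which removes palmitate from proteins, read 10.80, 10.78 and 10.83 in control and 10.95, 11.06 and 11.04 in knockdown arrays. It rose by 0.21 ± 0.05 (adjusted p = 0.00902), a call lost without knockdown replicate 2 (adjusted p = 0.0535) and with no intensity trend in the variance (0.0586). TPP1, a tripeptidyl peptidase, was at -0.17 on its brightest probe set (adjusted p = 0.109), where the groups did not overlap.

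The genes of the 3 lysosomal membrane proteins in the set did not pass over all 6 arrays. LAMP1, the most abundant glycoprotein of that membrane, read 10.80, 10.88 and 11.02 in control and 10.98, 10.97 and 10.95 in knockdown arrays, so that control replicate 3 lay above all knockdown values. LAMP1 was at 0.07 (interval -0.06 to 0.19), and without that array it passed as higher at 0.13 (adjusted p = 0.0314). LAMP2, which is needed for fusion with autophagosomes, read 8.74, 8.83 and 8.80 in control and 9.06, 8.90 and 8.98 in knockdown arrays. The groups did not overlap, and LAMP2 was at 0.19 (adjusted p = 0.0613), passing without control replicate 3 (0.20, adjusted p = 0.0222). Of the dimmer LAMP2 probe sets, which can read different splice forms, one was at -0.25, one at 0.20 and one at 0.00. MCOLN1, a calcium channel of the lysosome, was at 0.11 (adjusted p = 0.366).

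Of the factors that activate lysosomal genes, TFEB fell and TFE3 did not pass. TFEB read 5.85, 5.68 and 6.38 in control and 5.32, 5.38 and 5.47 in knockdown arrays. It fell by 0.58 ± 0.16 (adjusted p = 0.0268), with no overlap between the groups and a control SD of 0.37 that comes mostly from control replicate 3. Without that array the fall was 0.38 (adjusted p = 0.00799). The call was lost without knockdown replicate 1, 2 or 3 (adjusted p = 0.0994, 0.0872 and 0.0697) and with probe sets averaged. The dimmer TFEB probe set was at 0.01. TFE3 read 8.77, 8.69 and 9.06 in control and 8.80, 8.68 and 8.74 in knockdown arrays. Its groups overlapped and it was at -0.10 (interval -0.31 to 0.11), or 0.01 without control replicate 3.

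Of 22 autophagy genes tested, 1 rose, 6 fell and 15 did not pass, with a median log2 fold change of -0.08. The share called was 31.8%, beside 22.5% of all genes. In the initiation complex no member passed. ULK1, the starting kinase, read 7.37, 7.43 and 7.94 in control and 7.28, 7.32 and 7.36 in knockdown arrays. The knockdown values were below all controls, but the difference of -0.26 (adjusted p = 0.198) was mostly that of control replicate 3 and shrank to -0.08 without it. ATG13 was low on the same array, at 7.69 against 8.36 and 8.28, and its difference went from 0.30 to 0.09 without it. ATG101 was at -0.09, and RB1CC1 (FIP200, the scaffold of the complex) at 0.16, passing without control replicate 3 (0.18, adjusted p = 0.0426). ULK2, at a mean of 2.96 on its brightest probe set, was not tested.

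At the next step, the nucleation of the sac, BECN1 read 8.88, 8.98 and 9.11 in control and 8.81, 8.98 and 8.84 in knockdown arrays. The groups overlapped, and BECN1 was at -0.11 (interval -0.28 to 0.06), or -0.053 without control replicate 3. Its partner UVRAG was at -0.16, or -0.093 without that array. ATG9A, the membrane protein that seeds the sac, was at -0.06, or 0.07 without it, and none of these passed. WIPI1, which binds the lipid made by the BECN1 complex, read 8.12, 8.02 and 8.36 in control and 7.89, 7.87 and 7.58 in knockdown arrays. It fell by 0.39 ± 0.11 (adjusted p = 0.0311), without overlap, but the call was lost in 8 of 16 settings, among them the loss of knockdown replicate 1, 2 or 3 (adjusted p = 0.0566, 0.0648 and 0.129), the replicate block (0.0517) and no intensity trend (0.0565). Its relative WIPI2 was at 0.19 on its brightest probe set (adjusted p = 0.0551), passing there without control replicate 3 (0.18, adjusted p = 0.0253). On another probe set WIPI2 fell, at -0.44 ± 0.08 (adjusted p = 0.0149 over all probe sets), so no direction is given for WIPI2.

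In the conjugation system, the E2-like enzyme ATG3, which hands LC3 and GABARAP proteins to lipid, read 10.35, 10.49 and 10.41 in control and 10.67, 10.72 and 10.80 in knockdown arrays. All knockdown values were higher, and ATG3 rose by 0.31 ± 0.05 (adjusted p = 0.00322). The second, far dimmer ATG3 probe set was at 0.26 and did not pass (adjusted p = 0.169 over all probe sets), so the call was lost where probe sets ending in _s_at or _x_at were avoided (adjusted p = 0.117). The E1-like enzyme ATG7 was also higher on every knockdown array, at 6.95, 7.10 and 6.91 against 6.72, 6.80 and 6.64, but missed the threshold (0.27, adjusted p = 0.0527); it passed without control replicate 3 (0.23, adjusted p = 0.0416). ATG16L1, which places the conjugation on the sac, read 6.38, 6.25 and 6.51 in control and 5.94, 6.05 and 6.12 in knockdown arrays. It fell by 0.34 ± 0.10 (adjusted p = 0.0314), yet that call held in only 9 of 16 alternative settings. The call was lost without any 1 of the knockdown replicates (adjusted p = 0.130, 0.0931 and 0.0643) and without control replicate 1 (0.0630). It was also lost with quantile normalization, with probe sets averaged and with arrays centred on the tested genes. The second ATG16L1 probe set was at 0.08. ATG5 was at 0.07 and ATG12 at -0.15, neither past the threshold on the brightest probe set, though a dim ATG12 probe set fell (-0.61, adjusted p = 0.0294 over all probe sets). ATG4B, the protease that prepares the LC3 proteins, was at 0.13, or 0.0067 without control replicate 3.

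LC3 and GABARAP proteins coat the sac and bind receptors. Of the 4 genes for them in the set, read as transcripts, GABARAP and GABARAPL1 fell and the others did not pass. GABARAP read 11.07, 11.07 and 11.23 in control and 10.80, 10.82 and 10.79 in knockdown arrays. The groups were apart by more than the spread within either, and GABARAP fell by 0.32 ± 0.05 (adjusted p = 0.00227). GABARAPL1 read 6.64, 6.77 and 7.04 in control and 6.16, 6.47 and 6.27 in knockdown arrays, and fell by 0.52 ± 0.12 (adjusted p = 0.0137), or by 0.40 without control replicate 3. Its call was lost without knockdown replicate 1 or 3 (adjusted p = 0.0685 and 0.0601), and its probes may also read the near-identical GABARAPL3. GABARAPL2 was at 0.05 (interval -0.07 to 0.17). MAP1LC3B, the LC3 form most used to follow autophagy, read 10.38, 10.37 and 10.15 in control and 10.39, 10.50 and 10.33 in knockdown arrays. Its groups overlapped, with control replicate 3 the lowest of all 6, and its log2 fold change of 0.11 (adjusted p = 0.326) was 0.03 without that array.

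Receptors for ubiquitin-tagged cargo held the largest change of the set. OPTN read 7.73, 7.82 and 8.45 in control and 6.59, 6.70 and 6.49 in knockdown arrays. Every knockdown value was more than 1 log2 unit below the lowest control. OPTN fell by 1.41 ± 0.16 (adjusted p = 0.000379), and by 1.18 without control replicate 3, which was its highest array (adjusted p = 3.44e-08). The second OPTN probe set read 5.96, 5.91 and 6.18 in control and 4.88, 5.12 and 4.78 in knockdown arrays, and fell by 1.09 (adjusted p = 0.00394 over all probe sets). SQSTM1 (p62), a receptor that is itself degraded by autophagy, read 9.87, 9.91 and 9.93 in control and 9.43, 9.60 and 9.55 in knockdown arrays. It fell by 0.38 ± 0.06 (adjusted p = 0.00192), also without control replicate 3 (by 0.36). The call held in 14 of 16 alternative settings. It was lost with probe sets averaged and with those ending in _s_at or _x_at avoided (0.04). The next SQSTM1 probe set by brightness was at -0.36 (adjusted p = 0.0816), and 3 dimmer ones were at 0.04, -0.10 and -0.47, none past the threshold. NBR1 was at 0.02 (interval -0.12 to 0.17). Outside the set, and named here after their values were seen, the receptors CALCOCO2 (NDP52) and TAX1BP1 rose, by 0.28 ± 0.07 (adjusted p = 0.0165) and 0.17 ± 0.05 (adjusted p = 0.0314). Those calls were lost in 5 and 7 of 16 alternative settings, with adjusted p up to 0.462 and 0.847.

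The probe sets of a gene were compared as a check on each call. Of the 14 called members, 5 had no second probe set past the limit on dim probe sets and 9 had 15 dimmer ones between them. Of those 15, 12 had the sign of the brightest and 5 passed in its direction: 4 for CTSB and 1 for OPTN. Over all 32759 probe sets, where 10.6% passed, the brightest probe sets of 11 of the 14 genes still passed; those of TFEB, WIPI1 and ATG16L1 did not (adjusted p = 0.0811, 0.0853 and 0.0747).

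**Figure D3:**
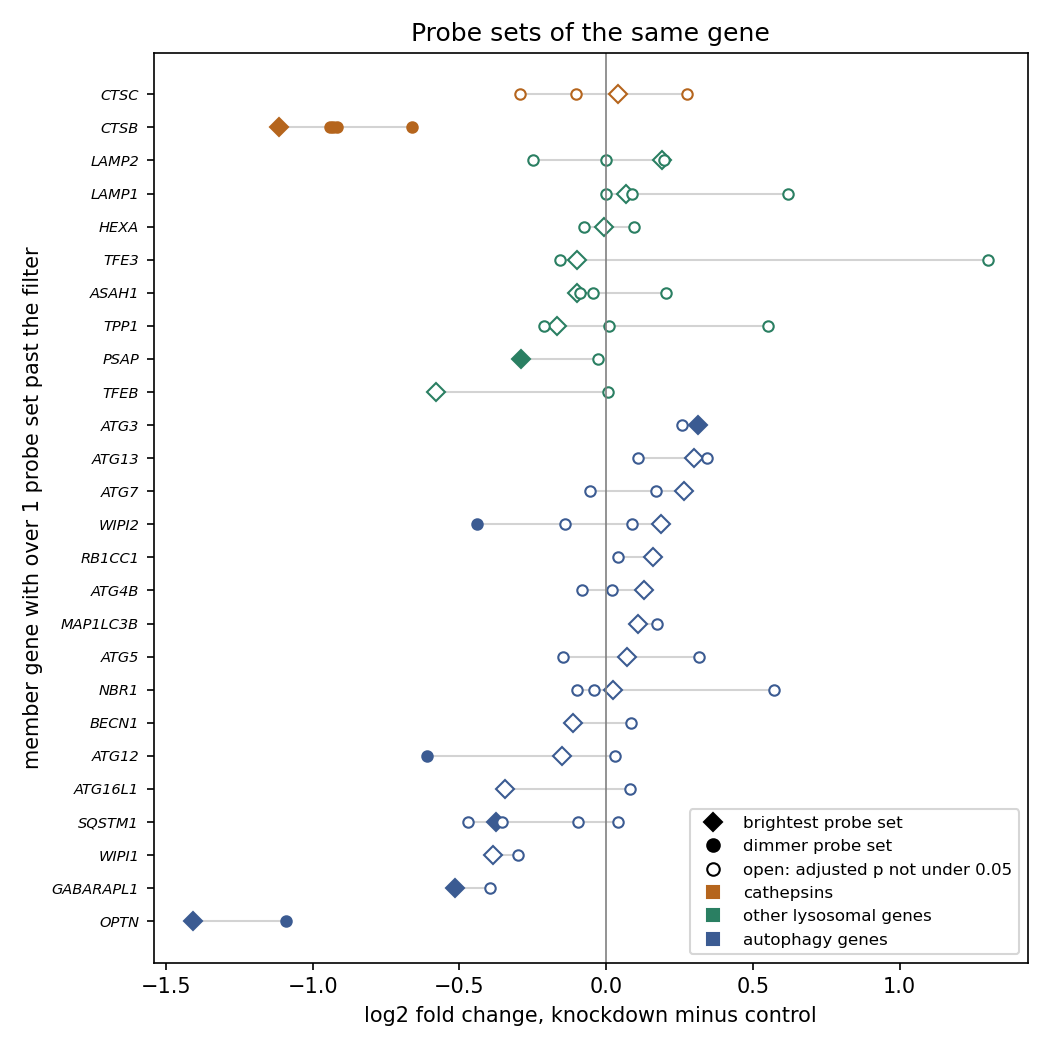
Log2 fold change, knockdown minus control (horizontal axis), of every probe set past the limit on dim signals for the 26 members with more than 1 (vertical axis). Diamonds mark the brightest probe set, and filled symbols passed an adjusted p of 0.05 over all probe sets. All 5 CTSB and both OPTN symbols are filled and below 0, whereas the WIPI2 symbols lie on either side of 0 and a dim TFE3 probe set stands alone at 1.30.

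Several dimmer probe sets of uncalled members were far lower on control replicate 3 than on the other controls. A TFE3 probe set read 5.24, 5.27 and 2.56 on control replicates 1 to 3 and 5.76, 5.60 and 5.61 on knockdown arrays. A TPP1 probe set read 6.80, 6.86 and 5.54 on the controls, an NBR1 probe set 8.18, 8.27 and 6.90, and a LAMP1 probe set 8.14, 8.13 and 7.0, with knockdown values at or above 6.80, 8.30 and 8.29 in turn. The fold changes of these 4 probe sets were 1.30, 0.55, 0.57 and 0.62 on the log2 scale, and none passed. Without control replicate 3 the brightest probe sets of all 14 called members still passed, and LAMP1, LAMP2, ATG7, WIPI2 and RB1CC1 passed as well, all 5 as higher. The count of members that rose then went from 4 to 9 of 45 while 10 fell. Over all genes the share that rose went from 8.13% to 12.7% and the share that fell from 14.3% to 16.6%. The count of 9 rests on the brightest probe sets. Over all 6 arrays LAMP2, ATG7 and WIPI2 each had a dimmer probe set of the opposite sign, at -0.25, -0.057 and -0.44. That of WIPI2 fell, so no direction is given for WIPI2.

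**Figure D4:**
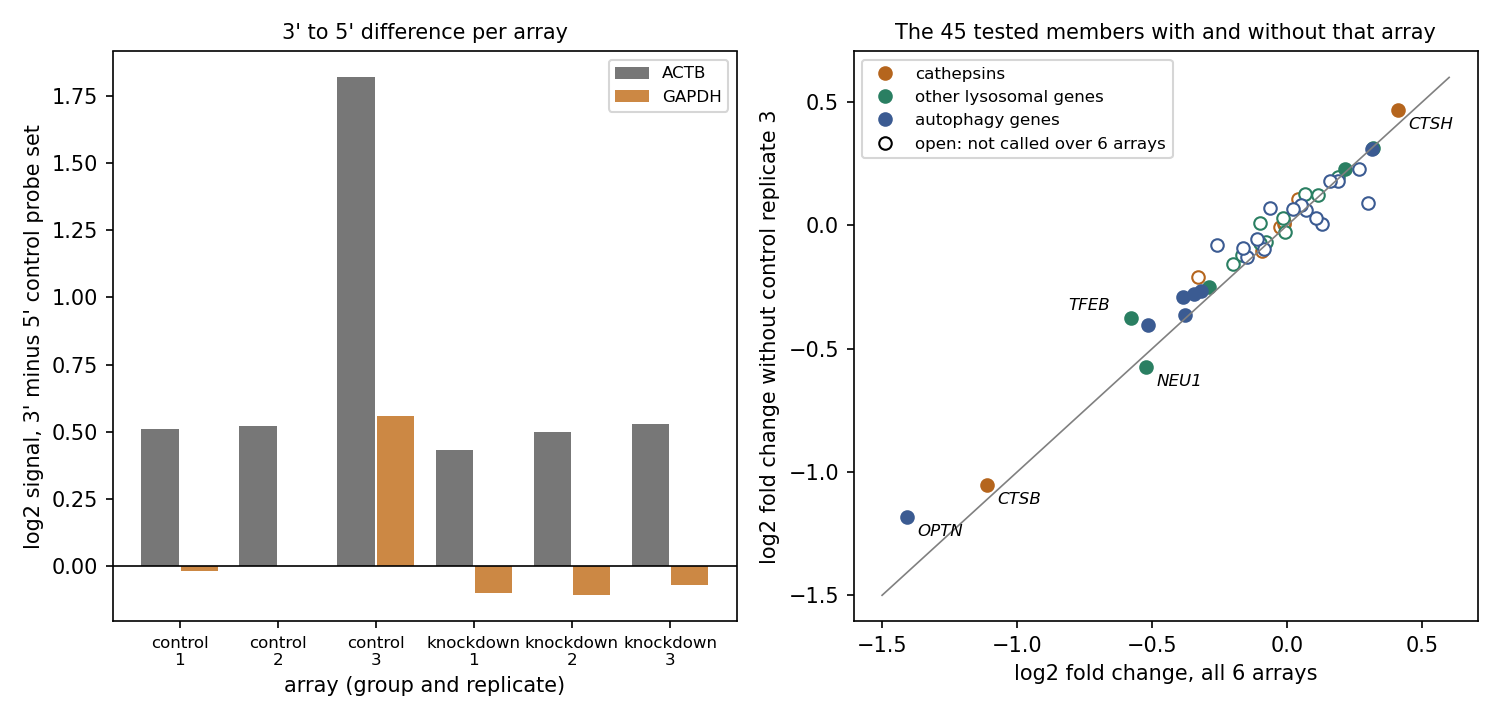
Left, difference in log2 signal between the 3' and 5' control probe sets of ACTB and GAPDH (vertical axis) on each array (horizontal axis); control replicate 3 stands out at 1.82 and 0.56. Right, log2 fold change of the 45 tested members over all 6 arrays (horizontal axis) against that without control replicate 3 (vertical axis), with the line of equality; OPTN moved from -1.41 to -1.18 and TFEB from -0.58 to -0.38.

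Other genes of the lysosome and of autophagy were read from 5 further lists. Of 21 further hydrolases tested, 2 rose and 5 fell (median -0.03), so that 33.3% were called, beside 22.5% of all genes. GGH, the lysosomal and secreted gamma-glutamyl hydrolase of folates, read 8.33, 8.32 and 8.35 in control and 9.10, 9.11 and 9.08 in knockdown arrays, and rose by 0.76 ± 0.06 (adjusted p = 2.98e-05). SCPEP1, a serine carboxypeptidase, rose by 0.55 ± 0.10, while IDS (iduronate sulfatase) fell by 0.65 ± 0.09 and PLA2G15, the lysosomal phospholipase A2, by 0.57 ± 0.09. Of 24 genes for lysosomal membrane proteins and sorting, 2 rose and 5 fell (median -0.10), so that 29.2% were called. The mannose 6-phosphate receptor IGF2R, which carries new hydrolases to the lysosome, fell by 0.55 ± 0.06 (adjusted p = 0.000295), as did the cystine transporter CTNS by 0.41 ± 0.08 and the tetraspanin CD63 by 0.23 ± 0.04, a call lost with arrays centred on the tested genes (adjusted p = 0.0735). VPS41 of the tethering complex rose by 0.34 ± 0.08, but was at 0.09 with probe sets ending in _s_at or _x_at avoided (adjusted p = 0.654).

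Among 16 subunits and partners of the V-ATPase, the proton pump that acidifies the lysosome, 2 fell and 0 rose in limma (median -0.11), so that 12.5% were called, beside 22.5% of all genes. At an unadjusted p under 0.05, 7 were lower and 1 higher, where 22.2% of all genes were lower and 13.1% higher. ATP6V1B2 fell by 0.55 ± 0.08 (adjusted p = 0.00118) and ATP6V0B by 0.18 ± 0.05 (adjusted p = 0.0323). The ATP6V0B call held in 9 of 16 alternative settings. It was lost without any 1 of 5 arrays (adjusted p = 0.0740 to 0.122), with no intensity trend and with arrays centred on the tested genes. Of 28 further autophagy genes 6 fell and 2 rose (median -0.09), so that 28.6% were called, beside 22.5% of all genes. TP53INP2, which brings LC3 proteins from the nucleus to the sac, had the largest fall of these, by 0.99 ± 0.14 (adjusted p = 0.00122), or by 0.83 without control replicate 3. WDR45 (WIPI4) fell by 0.44 ± 0.08, the fusion protein VAMP8 by 0.30 ± 0.06 and the lipid transfer protein ATG2A by 0.32 ± 0.07. The VAMP8 call was lost with arrays centred on the tested genes (adjusted p = 0.0570), and that of ATG2A without knockdown replicate 2 (0.0622). Of 22 genes that control mTORC1 and TFEB, 4 fell and 0 rose in limma (median -0.07): the calcineurin subunit PPP3CA by 0.37 ± 0.06, FNIP1 by 0.50 ± 0.09, the GTPase RRAGC by 0.38 ± 0.09 and the TFEB relative MITF by 0.35 ± 0.10. The share called was 18.2%, and 7 of the 22 were lower and 3 higher at an unadjusted p under 0.05. The RRAGC call was lost without knockdown replicate 1 or 2 (adjusted p = 0.0685 and 0.0517). The MITF call was lost without knockdown replicate 1, 2 or 3 or control replicate 2 (adjusted p = 0.0615 to 0.100). It was also lost with probe sets ending in _s_at or _x_at avoided and with arrays centred on the tested genes.

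**Figure D5:**
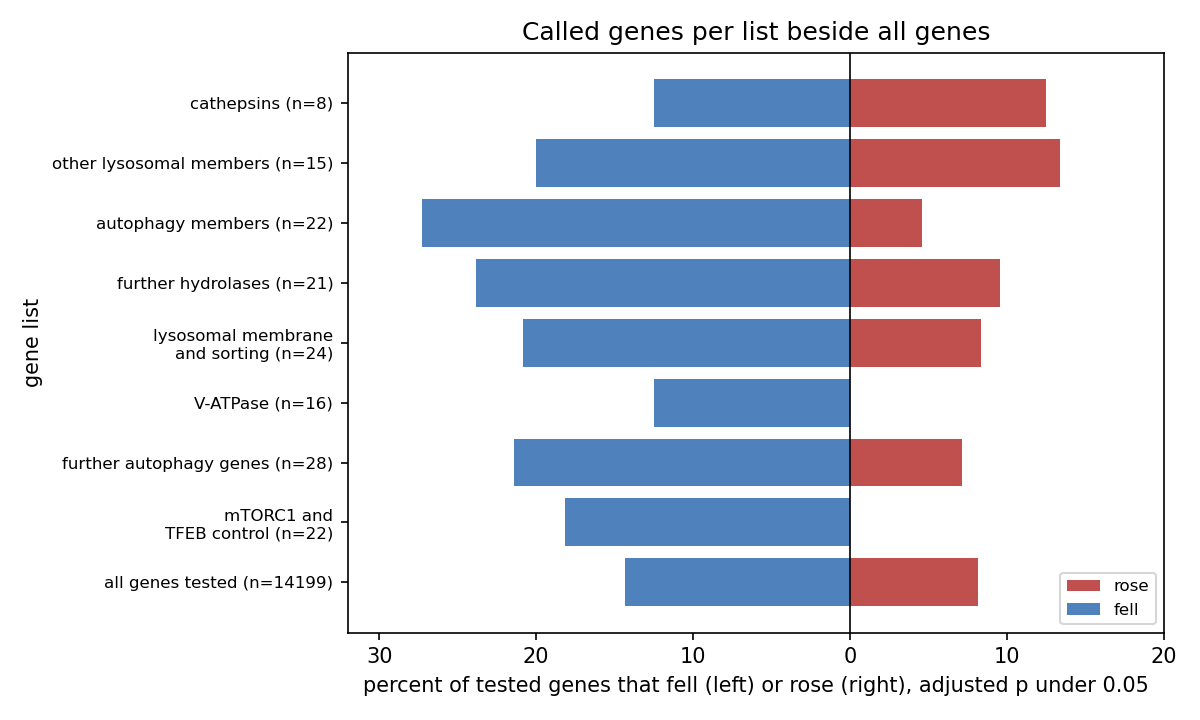
Percent of the tested genes of each list (vertical axis) that fell, to the left, or rose, to the right, at an adjusted p under 0.05 (horizontal axis). The V-ATPase and mTORC1 lists have no bar to the right, and the bottom row gives all 14199 genes, of which 14.3% fell and 8.13% rose.

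For single genes, exact permutation of the array labels (two-sided) cannot go below p = 0.1 with 3 arrays a group. That value is reached where the groups do not overlap, as for 40.3% of all genes. All 14 called members reached it, and so did 12 of the 31 that did not pass, so it does not set the called members apart. The log2 fold changes of the 31 members that did not pass ran from -0.33 to 0.30. At an unadjusted limma p under 0.05 stood 22 of the 45 members, 14 lower and 8 higher, beside 35.3% of all genes.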

How the data were processed

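Values are log2 probe set signals from 1-colour Affymetrix arrays (6 arrays, 54675 probe sets), deposited by the authors already on 1 scale; the log2 unit was read from the values (1.29 to 13.68). The submitters' processing notes name MAS5 with no version; the sources used here do not name the summary or scaling method. Tests left out 62 control probe sets and, of the remainder, the 40% with the lowest means. Probe sets paired with 1 gene (41091) were named by the platform annotation, updated through Entrez identifiers to RefSeq symbols. The brightest probe set stood for each gene. The test was limma 3.58.1 under R 4.3.3, with lmFit and a trended eBayes. Two-sided p-values were adjusted by Benjamini-Hochberg over 14199 genes; "rose" and "fell" mean an adjusted p under 0.05. The fit was also run on simulated data with independent noise of equal spread in both groups. That setting holds no array of lower RNA quality, so it does not test the p-values of these arrays. The members and lists were chosen with earlier results of these data known. Values on every array are given for members past the threshold and for TFEB, TFE3, CTSB, CTSD, LAMP1, LAMP2, MAP1LC3B, SQSTM1, BECN1 and ULK1; up to 4 called genes of smallest p are named from each further list. CTSZ, ATG7, ATG13 and the dimmer probe sets shown were singled out after their values were seen. Alternatives were 2 other scalings, 2 filters, 2 probe set choices, 2 variance models, a replicate block and leaving out each array; centring on the tested genes was added after seeing the data. For arrays, 3 per group limits the precision.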

Additional observations from a re-analysis of the deposited data

How the results depend on the processing

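Of the 14 called members, CTSB, CTSH, NEU1, LIPA, GABARAP and OPTN kept their direction and passed in all 16 alternative settings. The counts moved as follows. Members of the other lysosomal class that rose numbered 2, 1 with no intensity trend and 4 with arrays centred on the tested genes; those that fell went from 3 to 1 with probe sets averaged. Autophagy members that rose went from 1 to 3 with quantile normalization, to 3 with the lowest 60% of probe sets left out, to 0 with probe sets ending in _s_at or _x_at avoided and to 4 with arrays centred on the tested genes. Leaving out 1 array gave 1732 to 4161 called genes against 3189, 1 to 2 falling cathepsins, 1 to 4 rising other lysosomal members, and 1 to 4 rising and 3 to 6 falling autophagy members. Whether replicate numbers pair the arrays was not settled. Deviations of same-numbered arrays correlated at 0.02, 0.11 and -0.01 across genes, and those of differently numbered arrays at -0.07 to 0.05. With 3 arrays a group, 1 of them of lower RNA quality, a pairing could be hidden. The replicate block gave 3049 called genes and 13 called members, without WIPI1 (adjusted p = 0.0517), and changed no other call of a member. Signs turned in some settings, with no call in either setting unless stated. With probe sets ending in _s_at or _x_at avoided, they turned for LAMP2 (-0.25), HEXA (0.093), ASAH1 (0.20), ATG7 (-0.057), NBR1 (-0.10), SQSTM1 (0.04) and WIPI2 (-0.44). WIPI2 was called as lower there (limma adjusted p = 0.00391). SQSTM1 was called as lower in the main fit, and its call was also lost with probe sets averaged. Averaging turned the sign for CTSC (-0.02), HEXA (0.0033), TPP1 (0.045), TFE3 (0.35) and WIPI2 (-0.077). Quantile normalization did so for CTSD (0.022) and CTSL (0.02). Centring on the tested genes did so for CTSA (0.073), CTSD (0.09), CTSL (0.087), CTSV (0.0067), GLA (0.023), HEXA (0.093), GUSB (0.083), ATG9A (0.037) and ATG101 (0.013). Leaving out 1 array turned the sign for CTSC (-0.01 to 0.10), CTSD (-0.057 to 0.028), CTSL (-0.042 to 0.013), HEXA (-0.028 to 0.022), GUSB (-0.047 to 0.028), TFE3 (-0.17 to 0.01), ATG9A (-0.14 to 0.07) and NBR1 (-0.017 to 0.068). The causes were not tested. Signals near the low end, such as the dim CTSS and ULK2 probe sets, allow no statement on a difference.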
